A study of Saccharomyces cerevisiae with 24 samples.

Results

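The ADE genes encode the enzymes that build purine nucleotides de novo in the budding yeast Saccharomyces cerevisiae. They were taken by name from the deposited expression table, which gave 10 transcripts of the 6685 in the table, and all 10 were abundant enough to be tested. In the order in which their enzymes act they are ADE4 (YMR300C), ADE5,7 (YGL234W), ADE8 (YDR408C), ADE6 (YGR061C), ADE2 (YOR128C), ADE1 (YAR015W), ADE13 (YLR359W), the pair ADE16 (YLR028C) and ADE17 (YMR120C), and ADE12 (YNL220W). The study asked whether the way RNA is isolated changes the transcript abundance that RNA-seq measures. It used 24 libraries of polyA-enriched RNA from 6 sample types, each with 4 biological replicates.

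All cells were of BY4741, a haploid laboratory strain of mating type a derived from S288c. It carries the alleles ura3∆0, met15∆0, leu2∆0 and his3∆1 and has intact ADE genes, and it was grown in synthetic complete medium. Unstressed cells were collected at 30 °C and heat-shocked cells after 20 min at 37 °C. Heat was applied by adding an equal volume of hotter medium, so only the heat-shocked cells were also diluted. The part of this dilution in the heat response was not tested. At each collection point the same culture was divided over the 3 isolation methods. "Phenol" is extraction with hot acid phenol and detergent, "RNeasy" is a silica column kit, and "Direct-zol" is a column kit that starts from TRIzol, and for both kits cells were broken open with beads. The Phenol RNA was afterwards cleaned on an RNeasy column, so RNA of all 3 methods passed a column. All of it was treated with DNase on the column. Transcripts of the deleted LEU2, MET17 (met15) and URA3 genes were at or near 0 (highest 0.1 TPM), while HIS3, which keeps part of its sequence in this strain, had 47.88 to 112.08 TPM.

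De novo synthesis assembles the purine ring stepwise on phosphoribosyl pyrophosphate (PRPP) until inosine monophosphate (IMP) is formed, from which AMP and GMP are made. In yeast most genes of the pathway are activated by the transcription factors Bas1 and Pho2 when adenine is scarce and are repressed when it is plentiful. Bas1 recognises the sequence TGACTC, which is also the core of the site bound by Gcn4, the activator of amino acid synthesis genes.

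The sequence TGACTC, searched on both strands in the 400 bases before each start codon, was present upstream of 9 of the 10 genes and absent from this window of ADE16. It was present in 10.3% of the windows of 6001 genes, and 5 of the 10 ADE genes held it more than once, against 1.08% of all windows. The windows below show it upstream of the genes whose transcripts rose most (ADE17 and ADE2) and of those that fell (ADE5,7, ADE6 and ADE8) after heat shock. They are read on the coding strand from the R64 genome, with the match in capitals. In ADE8 a further match stands in lower case in the same window.
ADE17 upstream of the gene, farther match (chrXIII:509560-509609, minus strand): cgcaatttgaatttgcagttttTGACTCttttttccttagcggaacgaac
ADE17 upstream of the gene, nearer match (chrXIII:509430-509479, minus strand): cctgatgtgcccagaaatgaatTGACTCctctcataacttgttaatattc
ADE2 upstream of the gene, farther match (chrXV:566360-566409, minus strand): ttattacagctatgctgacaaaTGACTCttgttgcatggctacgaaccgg
ADE2 upstream of the gene, nearer match (chrXV:566317-566366, minus strand): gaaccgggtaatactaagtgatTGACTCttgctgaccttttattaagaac
ADE5,7 upstream of the gene, nearer match (chrVII:56276-56325, plus strand): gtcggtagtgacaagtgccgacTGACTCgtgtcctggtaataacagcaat
ADE6 upstream of the gene (chrVII:616214-616263, minus strand): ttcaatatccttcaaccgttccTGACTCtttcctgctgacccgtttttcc
ADE8 upstream of the gene (chrIV:1289013-1289062, minus strand): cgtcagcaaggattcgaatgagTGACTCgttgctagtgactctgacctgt

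The first base of the match lay 177 and 307 bases before the start codon of ADE17, 153 and 196 before ADE2, 184 before ADE5,7 (with a further match at 217), 276 before ADE6, and 167 and 181 before ADE8. In ADE1, ADE4, ADE12 and ADE13 it lay 216 to 357 bases before the start codon. The motif thus stood upstream both of genes whose transcripts rose after heat shock and of genes whose transcripts fell. A match in such a window is a description of the sequence and not evidence that a factor was bound there. The stress response element AGGGG was found upstream of 4 of the 10 genes, against 28.9% of all windows. A pair of heat shock element units, GAA and TTC in either order set 2 bases apart, was found upstream of 3 of the 10, against 29.3% of all windows.

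Each gene is a single uninterrupted coding sequence in the R64 annotation, and none overlaps another annotated gene. ADE6, which encodes formylglycinamidine ribonucleotide synthetase, is the longest (chrVII:611889-615965, 4077 bases). The next is ADE5,7 (chrVII:56482-58890, 2409 bases), whose protein is a fused enzyme with glycinamide ribonucleotide synthetase and aminoimidazole ribonucleotide synthetase activities. ADE8, the glycinamide ribonucleotide transformylase gene, is the shortest (chrIV:1288215-1288859, 645 bases). ADE16 (chrXII:199540-201315) and ADE17 (chrXIII:507502-509280) are paralogs that both encode AICAR transformylase-IMP cyclohydrolase, the enzyme of the last steps to IMP. Their coding sequences were identical at 74.8% of aligned positions, and they shared 0 sequences of 50 bases, the read length, so that whole reads could be told apart. Their longest identical run was 19 bases.

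In unstressed cells all 10 ADE transcripts were well expressed. With Phenol, from 65.1% (ADE2) to 90.6% (ADE5,7) of the tested transcripts had a lower mean level. Abundances are given as TPM, RSEM's measure of transcript abundance that is a share of the library that is corrected for transcript length, so levels of different genes can be compared. ADE2, the phosphoribosylaminoimidazole carboxylase gene known for the red colour of its mutants, was the lowest on average with each method. It had 65.0 ± 8.17 TPM with Phenol, 76.7 ± 5.29 with RNeasy and 70.3 ± 3.54 with Direct-zol (SD, n = 4 for this and all TPM means below). With RNeasy its range overlapped that of ADE17, the next lowest.

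The highest unstressed level depended on the method. With Phenol it was ADE5,7 at 267.7 ± 20.5 TPM, whose replicates overlapped those of ADE16 at 224 ± 18.3 TPM. With RNeasy ADE16 was highest at 236.5 ± 10.5 TPM and did not overlap ADE13, the adenylosuccinate lyase gene, at 185 ± 9.77 TPM. With Direct-zol ADE16 at 204.8 ± 8.51 TPM overlapped ADE5,7 at 181.5 ± 17.6 TPM.

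After heat shock the order was different. ADE17 was the highest with each method, with 491.7, 437.3 and 442.7 TPM for Phenol, RNeasy and Direct-zol, and ADE16 was the next at 410.0, 427.7 and 397.0 TPM. Their ranges overlapped with both kits and did not with Phenol. ADE2 had moved from the lowest to the third place, without overlap with ADE16. The lowest were ADE8 with Phenol (94.0 ± 6.22 TPM, overlapping ADE6) and ADE6 with RNeasy (79.1 ± 5.17 TPM) and Direct-zol (65.4 ± 9.45 TPM). Summed over the 10 genes, the transcripts made up 0.134%, 0.131% and 0.127% of the deposited TPM in unstressed cells and 0.221%, 0.213% and 0.213% after heat shock, for Phenol, RNeasy and Direct-zol. On TPM as deposited the lowest heat shock sum of any library (1986 TPM) was above the highest unstressed sum (1406 TPM). On the scaled TPM described below, single libraries of unstressed Phenol (1608 ± 101) and heat-shocked RNeasy (1732 ± 82.2) overlapped. Within each method the scaled mean sum was still higher after heat shock.

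**Figure D1:**
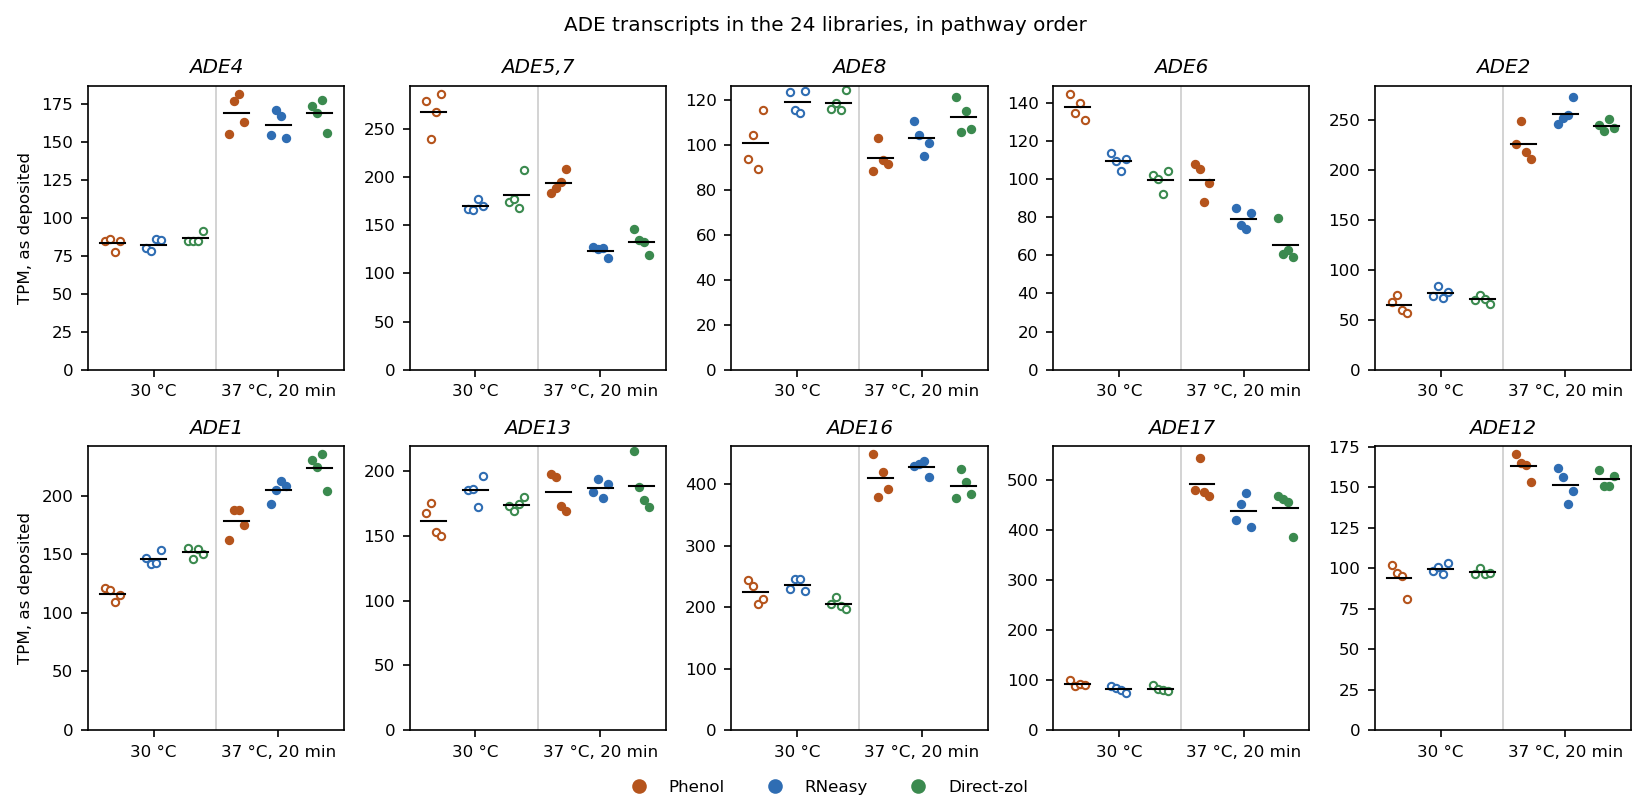
Abundance of the 10 ADE transcripts in all 24 libraries, in TPM as deposited, by gene in pathway order and by isolation method, with open circles for unstressed libraries, filled circles for heat shock and black bars for the mean of 4 replicates. ADE17 moves furthest, from 74.14 to 100.6 TPM unstressed to 385.68 to 543.48 TPM after heat shock, and ADE2 from 56.76 to 83.45 TPM to 210.61 to 273.02 TPM, while ADE5,7 and ADE6 are lower after heat shock.

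TPM are shares, so a transcript's TPM also shifts when other transcripts change. For every comparison the TPM were therefore divided by a factor per library (0.776 to 1.27) that centres the bulk of all transcripts, and log2(scaled TPM + 1) was fitted with limma for 6137 transcripts. A transcript was taken to differ at a Benjamini-Hochberg false discovery rate (FDR) under 0.01 over all of them. Fold changes are on the scale of scaled TPM + 1.

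Heat shock split the pathway. With each method 6 of the 10 transcripts rose: ADE17, ADE2, ADE4, ADE16, ADE12 and ADE1. ADE5,7, ADE6 and ADE8 fell with each method, and ADE13 fell with RNeasy and Direct-zol. This made 9 of 10 that differed with Phenol, where 63.9% of all transcripts differed, and 10 of 10 with RNeasy and with Direct-zol, where 63.4% and 63.7% did. The heat response was widespread over the whole transcriptome. The shares of all transcripts that rose were 31.1% with Phenol, 31.3% with RNeasy and 31.7% with Direct-zol, and the shares that fell were 32.8%, 32.1% and 32.1%. The median log2 fold change of the 10 was 0.50, 0.28 and 0.31, against -0.002, 0.010 and 0.018 for all transcripts.

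ADE17 rose most. With Phenol it had 100.6, 87.25, 91.85 and 89.6 TPM in unstressed replicates 1 to 4 and 478.82, 543.48, 476.24 and 468.41 TPM after heat shock. With RNeasy the values were 87.93, 84.72, 80.58 and 74.14 TPM unstressed and 419.62, 450.96, 473.41 and 405.13 TPM after heat shock. With Direct-zol they were 89.87, 81.25, 80.5 and 78.13 TPM unstressed and 468.4, 460.78, 456.13 and 385.68 TPM after heat shock. No unstressed library came near any heat shock library. The fold changes were 4.58, 4.41 and 4.31 for Phenol, RNeasy and Direct-zol (log2 2.19, 2.14 and 2.11, SE 0.075 each), with limma adjusted p of 7.4e-15, 1e-14 and 1.3e-14. ADE17 ranked 213th, 214th and 225th of the 6137 transcripts by its rise.

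The paralog ADE16, the more abundant of the pair in unstressed cells, rose less. Its fold change was 1.58 with Phenol, 1.51 with RNeasy and 1.57 with Direct-zol, from 196.77 to 245.75 TPM over all unstressed libraries to 376.96 to 448.74 TPM after heat shock. ADE17 made up 29.2 ± 1.56% of the summed ADE16 and ADE17 TPM in unstressed Phenol libraries and 54.5 ± 3.14% after heat shock. With RNeasy the share went from 25.7 ± 1.40% to 50.5 ± 1.24%, and with Direct-zol from 28.7 ± 1.36% to 52.7 ± 2.22%. The highest unstressed share in any library was 31.0% and the lowest after heat shock was 49.4%, so the major transcript of the pair changed from ADE16 to an about even mixture. Because it is a ratio within a library, this share does not depend on the scaling between libraries.

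ADE2 came next. With Phenol it had 68.08, 74.94, 60.11 and 56.76 TPM unstressed and 226.23, 249.29, 217.98 and 210.61 TPM after heat shock. With RNeasy it had 73.82, 83.45, 71.36 and 77.98 TPM unstressed and 245.44, 251.48, 254.49 and 273.02 TPM after heat shock. With Direct-zol it had 69.35, 74.57, 71.13 and 66.08 TPM unstressed and 244.6, 238.93, 250.89 and 241.49 TPM after heat shock. The groups were far apart with each method. The fold changes were 3.00, 2.76 and 2.79 (log2 SE 0.060 each, limma adjusted p of 2.5e-14, 7.6e-14 and 6.1e-14).

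**Figure D2:**
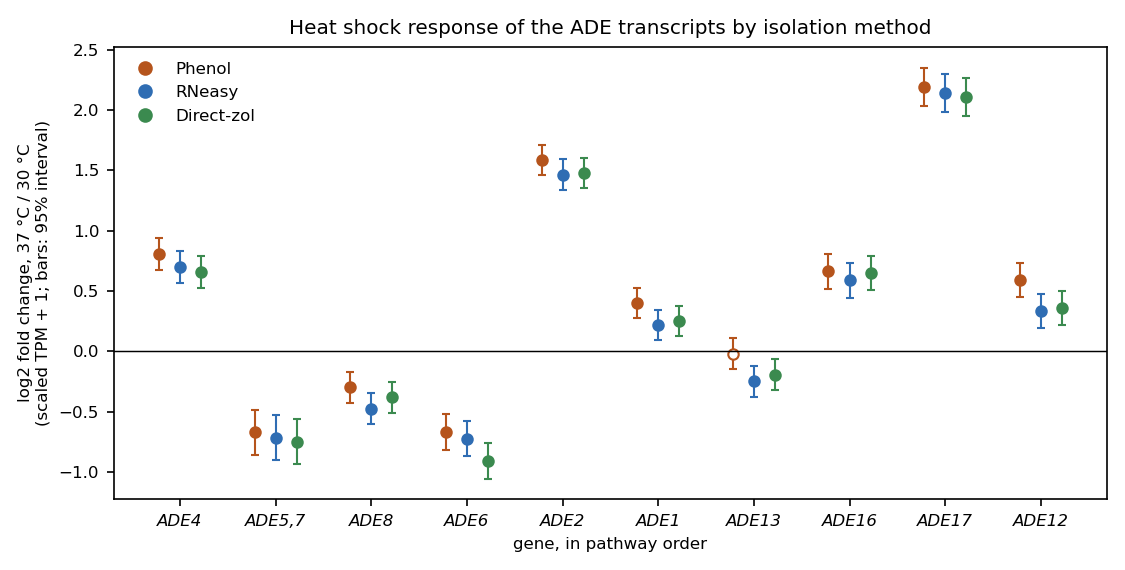
Log2 fold change of each ADE transcript from 30 °C to 37 °C on the scale of scaled TPM + 1, by gene in pathway order and by isolation method, with 95% intervals as bars and an open circle where the adjusted p did not pass 0.01 (ADE13 with Phenol). ADE17 (2.11 to 2.19) and ADE2 (1.47 to 1.58) stand above the others, and ADE5,7, ADE8 and ADE6, which encode steps near the start of the pathway, lie below 0.

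A middle group rose by less than 2-fold on the scaled values. ADE4 encodes PRPP amidotransferase, the committed first enzyme that is feedback inhibited by the purine nucleotides. It went from a mean of 83.4 to 169.1 TPM with Phenol, from 82.4 to 161.5 TPM with RNeasy and from 86.5 to 169.2 TPM with Direct-zol. Its scaled log2 fold changes were 0.81, 0.70 and 0.66 (SE 0.062), and on TPM as deposited they were 1.01, 0.96 and 0.96. No ADE4 value after heat shock (152.81 TPM or more) was as low as any unstressed value (91.44 TPM or less).

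ADE12, which encodes adenylosuccinate synthase and leads from IMP towards AMP, had log2 fold changes of 0.59, 0.34 and 0.36 (SE 0.067). Its deposited values were 81.0 to 103.39 TPM unstressed and 139.4 to 170.76 TPM after heat shock. ADE1, which encodes SAICAR synthetase, showed the smallest rise of the 6, with log2 fold changes of 0.40, 0.22 and 0.26 (SE 0.060, limma adjusted p of 5.7e-06, 0.003 and 0.00083). It had 109.37 to 155.89 TPM unstressed and 162.58 to 236.08 TPM after heat shock. The ADE1 call was lost with RNeasy when replicate 2, 3 or 4 was left out (adjusted p of 0.043, 0.044 and 0.011) and with Direct-zol when replicate 2 or 3 was left out (0.017 and 0.014).

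The transcripts that fell with each method (ADE5,7, ADE8 and ADE6) encode enzymes of consecutive steps after the first. ADE5,7 with Phenol had 278.57, 239.14, 267.35 and 285.93 TPM unstressed and 183.85, 188.5, 194.57 and 208.18 TPM after heat shock. With RNeasy it had 166.78, 165.96, 176.86 and 170.12 TPM unstressed and 127.02, 125.24, 126.75 and 115.91 TPM after heat shock. With Direct-zol it had 173.68, 177.19, 167.86 and 207.25 TPM unstressed and 145.67, 134.55, 132.42 and 118.85 TPM after heat shock. Within each method every heat shock value was lower than every unstressed value, although the Phenol heat shock values were above most unstressed values of both kits. The levels after heat shock were 0.629, 0.609 and 0.596 times those before (log2 -0.67, -0.72 and -0.75, SE 0.089, limma adjusted p of 1.5e-06, 5.9e-07 and 3.4e-07).

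ADE6 fell by a similar amount. With Phenol it had 144.43, 134.64, 139.77 and 131.0 TPM unstressed and 107.88, 105.08, 87.94 and 97.89 TPM after heat shock. With RNeasy it had 113.41, 109.65, 103.99 and 110.49 TPM unstressed and 84.55, 75.99, 73.57 and 82.3 TPM after heat shock. With Direct-zol it had 101.89, 100.15, 92.32 and 104.11 TPM unstressed and 79.37, 60.66, 62.72 and 58.85 TPM after heat shock. Again no heat shock value reached an unstressed value of the same method. The log2 fold changes were -0.67, -0.72 and -0.91 (SE 0.070, limma adjusted p of 5.3e-08, 1.7e-08 and 6.6e-10).

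The fall of ADE8 was smaller and depended on the scaling. Its log2 fold changes were -0.30, -0.47 and -0.38 (SE 0.062), all past the threshold. On TPM as deposited, with no scaling, they were -0.09, -0.21 and -0.08 and none passed (adjusted p of 0.27, 0.013 and 0.32). The deposited levels with Phenol were 89.17 to 115.26 TPM unstressed and 88.5 to 102.86 TPM after heat shock, and with Direct-zol 115.45 to 124.3 and 105.6 to 121.21 TPM, so that the treatments overlapped. With RNeasy they did not overlap (114.1 to 123.8 and 94.91 to 110.71 TPM).

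ADE13 changed least. Adenylosuccinate lyase acts both before AICAR and in the branch from IMP to AMP. With Phenol ADE13 had 167.7, 175.26, 152.83 and 149.68 TPM unstressed and 198.09, 195.28, 172.82 and 169.42 TPM after heat shock. With RNeasy it had 185.59, 185.9, 172.44 and 196.28 TPM unstressed and 183.71, 194.0, 179.5 and 190.08 TPM after heat shock. The deposited values of the 2 treatments overlapped with both methods, as they did with Direct-zol (169.05 to 179.74 and 172.43 to 215.91 TPM). The scaled log2 fold change was -0.02 with Phenol (95% interval -0.15 to 0.11, adjusted p = 0.79), -0.25 with RNeasy (adjusted p = 0.0012) and -0.19 with Direct-zol (adjusted p = 0.0079). On TPM as deposited the values were 0.19, 0.02 and 0.11 for Phenol, RNeasy and Direct-zol, and none passed (adjusted p of 0.015, 0.85 and 0.14). With Phenol the deposited value was higher after heat shock in each of the 4 replicates. The Direct-zol call was also lost without replicate 2, 3 or 4 (adjusted p of 0.027, 0.06 and 0.077).

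The scaling matters to these directions because the median transcript rose by 0.19, 0.26 and 0.29 log2 units after heat shock in the deposited TPM (Phenol, RNeasy and Direct-zol). The rise of the 6 transcripts and the fall of ADE5,7 and ADE6 passed the threshold with and without scaling.

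Other genes that feed, branch from or control the pathway were taken from a list of 34, all of which were tested. With Phenol 8 of them rose and 20 fell, and with RNeasy and with Direct-zol 8 rose and 22 fell. Over all transcripts 31.1% to 31.7% rose and 32.1% to 32.8% fell, depending on the method. The genes of one-carbon metabolism, which supply the formyl groups used by the ADE8, ADE16 and ADE17 enzymes, mostly rose (5 of 7 with each method). GCV1 and GCV2, subunits of the glycine decarboxylase complex, had log2 fold changes of 2.40, 2.43 and 2.41 and of 1.90, 1.86 and 1.80. MTD1, a cytoplasmic methylenetetrahydrofolate dehydrogenase, and SHM2, the cytoplasmic serine hydroxymethyltransferase, had 1.49, 1.38 and 1.34 and 0.91, 0.86 and 0.77. SHM1, the mitochondrial serine hydroxymethyltransferase, fell (-1.44, -1.56 and -1.55), and ADE3, the cytoplasmic C1-tetrahydrofolate synthase, did not pass (0.24, 0.24 and 0.19).

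All 5 genes of PRPP synthesis fell with each method. The largest falls were those of PRS1 (log2 -1.62, -1.61 and -1.65), PRS3 (-1.48, -1.51 and -1.60) and PRS4 (-1.05, -1.13 and -1.12), which encode PRPP synthetase subunits. All 6 genes of the step from IMP to GMP and of the nucleotide kinases fell as well. IMD2 and IMD4 encode IMP dehydrogenases and GUA1 encodes GMP synthase, and their log2 fold changes were -3.30, -3.09 and -3.37, -2.62, -2.63 and -2.67, and -2.60, -2.59 and -2.62. The IMD values are uncertain as single genes, since IMD2, IMD3 and IMD4 share 8.01%, 15.0% and 7.01% of their 50-base sequences with one another. ADE12 and IMD2 stand on the branches from IMP to AMP and to GMP, and their fold changes had opposite signs.

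Of 10 salvage and interconversion genes 3 rose with each method, and 4 fell with Phenol and 6 with each kit. AAH1, the adenine deaminase, fell furthest (log2 -2.54, -2.82 and -2.81), followed by APT1, adenine phosphoribosyltransferase (-1.65, -1.93 and -1.86), and ADO1, adenosine kinase (-1.49, -1.72 and -1.63). BAS1, the activator named above, fell (-0.87, -0.91 and -0.90), as did GCN4 (-0.91, -0.95 and -0.96), while PHO2 did not pass (-0.18, 0.00 and 0.03). Among histidine synthesis genes, whose pathway uses PRPP and releases AICAR, HIS1 fell (-1.23, -1.12 and -1.18) and HIS7 fell (-0.34, -0.36 and -0.42), while HIS4 did not pass (0.01, -0.20 and -0.14). TGACTC was found upstream of 14 of the 34 genes.

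**Figure D3:**
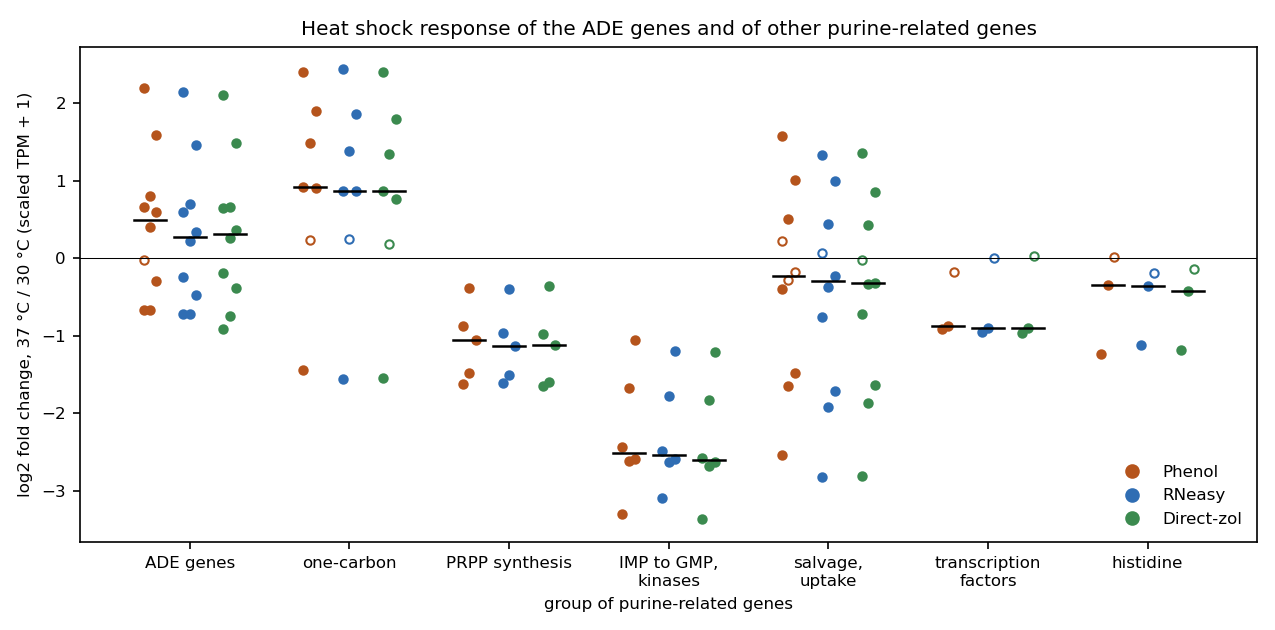
Log2 fold change after heat shock, on the scale of scaled TPM + 1, of the 10 ADE transcripts and of the 34 other genes by pathway group and isolation method, with filled circles for values past the threshold, open circles for the others and black bars for the median. Every gene of PRPP synthesis and of the step from IMP to GMP with the kinases lies below 0, and one-carbon genes reach the highest values (GCV1 at 2.40 to 2.43).

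Between methods in unstressed cells, the Phenol libraries had higher levels of a few ADE transcripts than both kits. Against RNeasy 4 of 10 were higher and none lower: ADE5,7 (1.92-fold), ADE6 (1.54-fold), ADE17 (1.38-fold) and ADE4 (1.24-fold), with limma adjusted p of 8.8e-08, 6.9e-07, 4e-05 and 0.00038. Of all transcripts tested 41.8% differed in this comparison, with 22.1% of all higher and 19.8% lower in Phenol, so that the share of ADE transcripts that differed was close to that of all. Against Direct-zol ADE5,7 (1.57-fold), ADE6 (1.47-fold) and ADE17 (1.19-fold) were higher and ADE1 was lower (0.821-fold), where 44.5% of all transcripts differed (22.9% higher and 21.6% lower). On TPM as deposited the ADE4 and ADE17 differences from RNeasy were 0.02 and 0.17 on the log2 scale and did not pass (adjusted p of 0.84 and 0.023), and ADE1 (-0.33), ADE8 (-0.25) and ADE2 (-0.24) passed as lower in Phenol. Against Direct-zol ADE17 (0.16) did not pass on TPM as deposited (adjusted p = 0.036), and ADE8 (-0.24) joined ADE1 (-0.38) as lower. The ADE17 difference from Direct-zol was also lost without replicate 1, 3 or 4 (adjusted p of 0.023 to 0.089). Both comparisons use the same Phenol libraries and so are not independent.

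The ADE5,7 difference was the largest among the 10 in unstressed cells, against either kit. Its scaled levels were 266.1 to 344.7 with Phenol, 162.8 to 172.3 with RNeasy and 183.6 to 231.9 with Direct-zol, so that the Phenol group overlapped neither kit. ADE5,7 and ADE6 were the 2 ADE transcripts that stayed higher in Phenol than in both kits and in both treatments on TPM as deposited too (log2 0.33 to 0.65). They are also the longest coding sequences of the 10. Over the 880 tested transcripts with coding sequences of at least 2409 bases the median log2 difference in unstressed cells was 0.07 against RNeasy and 0.26 against Direct-zol, while it was -0.04 and -0.09 for the shorter ones. After heat shock the medians of the long transcripts were 0.005 and 0.22. ADE5,7 was above 98.2% and ADE6 above 89.9% of the long transcripts against RNeasy, and above 82.4% and 76.0% against Direct-zol, in unstressed cells. For RNeasy against Direct-zol the medians of the long transcripts were 0.182 unstressed and 0.188 after heat shock. ADE5,7 lay at -0.29 and -0.26 in these comparisons, opposite in sign, and ADE6 at -0.065 and 0.118. The RNA integrity of the preparations also differed between the methods in the study, and the part of length or integrity in these differences was not tested.

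After heat shock 8 of the 10 were higher in Phenol than in RNeasy, all but ADE1 and ADE2, where 43.7% of all transcripts differed (22.6% higher and 21.1% lower). The log2 differences ran from 0.22 (ADE8) to 0.99 (ADE5,7). The ADE8 call was lost without replicate 2, 3 or 4 and the ADE16 call without replicate 1, 3 or 4 (adjusted p of 0.012 to 0.068). On TPM as deposited the median of all transcripts lay at -0.33 in this comparison, and 3 ADE transcripts passed: ADE5,7 (0.64) and ADE6 (0.33) higher and ADE1 (-0.20) lower. Against Direct-zol 5 were higher, ADE6 (log2 0.79), ADE5,7 (0.73), ADE17 (0.34), ADE12 (0.26) and ADE16 (0.23), where 42.6% of all transcripts differed (21.8% higher and 20.8% lower). The ADE12, ADE16 and ADE17 calls of this comparison were each lost when 1 replicate was left out (replicate 1, 2 or 3 for ADE12, replicate 1, 3 or 4 for ADE16 and replicate 4 for ADE17, adjusted p of 0.018 to 0.075). These 3 did not pass on TPM as deposited either (0.07, 0.04 and 0.15), ADE6 (0.61) and ADE5,7 (0.54) stayed higher, and ADE1 (-0.33) and ADE8 (-0.25) passed as lower in Phenol.

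Between the kits few transcripts passed the threshold, while most ADE levels were somewhat lower with RNeasy on the scaled values. In unstressed cells 0 of 10 passed between RNeasy and Direct-zol with limma at the adjusted threshold, where 3.89% of all transcripts did (2.93% higher and 0.961% lower with RNeasy), and 6 of the 10 had an unadjusted p under 0.05, as did 1514 of the 6137 transcripts. The scaled replicates of 7 of the 10 lay wholly below those of Direct-zol, and the groups did not overlap for 23.6% of all transcripts. The median log2 difference of the 10 was -0.18 against -0.02 for all. None of the 10 passed on TPM as deposited either, and the signs of ADE2, ADE6, ADE8, ADE12 and ADE13 turned (0.12, 0.13, 0.01, 0.03 and 0.09). The largest differences were -0.29 for ADE5,7 (adjusted p = 0.045), -0.27 for ADE4 (adjusted p = 0.010) and -0.25 for ADE1 (adjusted p = 0.012). After heat shock ADE1 (log2 -0.29) and ADE8 (-0.28) were lower with RNeasy, where 4.43% of all transcripts differed (3.68% higher and 0.75% lower). Both calls were lost when any 1 of the 4 replicates was left out (adjusted p of 0.022 to 0.074) and on TPM as deposited (0.17 and 0.25), where ADE6 alone passed and was higher with RNeasy (0.28, adjusted p = 0.0073).

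**Figure D4:**
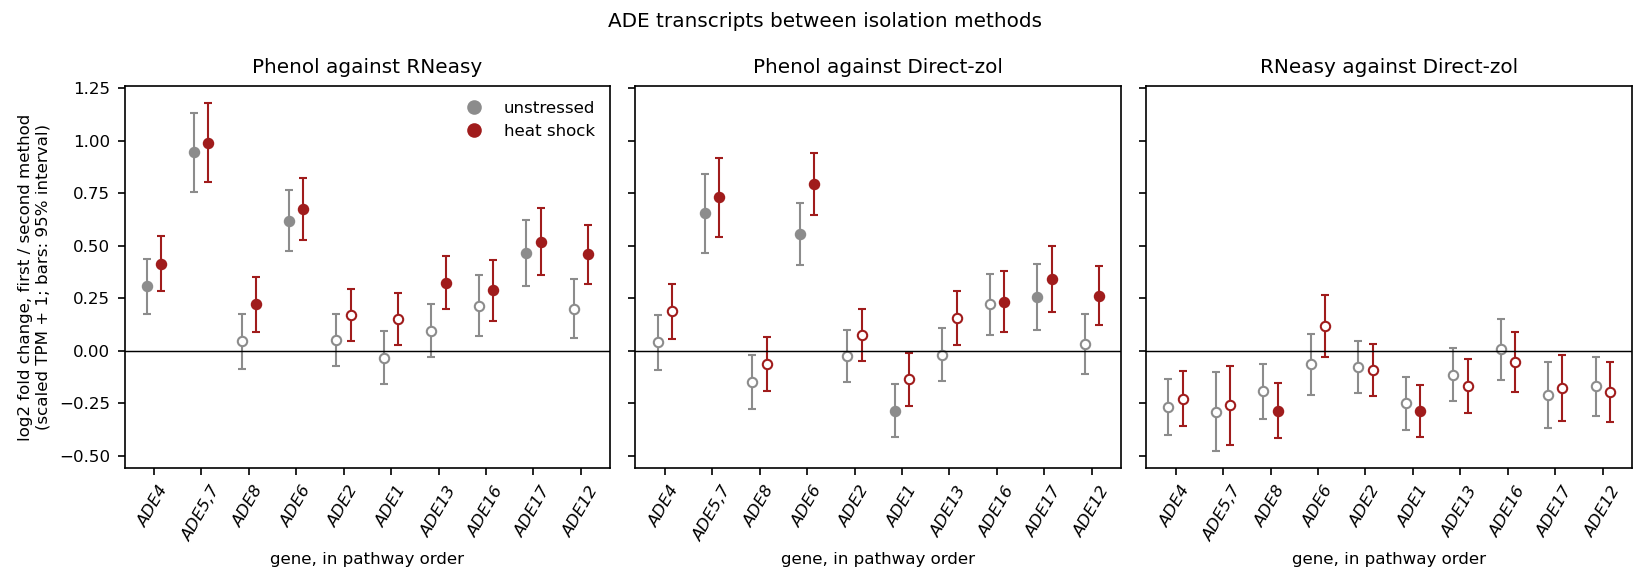
Log2 difference between isolation methods for each ADE transcript, on the scale of scaled TPM + 1, unstressed and after heat shock, with 95% intervals as bars and open circles where the adjusted p did not pass 0.01. ADE5,7 and ADE6 are higher in Phenol than in either kit (log2 0.56 to 0.99), and differences between the kits lie between -0.29 and 0.12.

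Whether the heat response itself depended on the method was tested as a difference of the responses. None of the 10 ADE transcripts and none of the 6137 transcripts passed in any of the 3 contrasts in limma (percent of all that differed: 0). At an unadjusted p under 0.05 there were 267 transcripts for Phenol against RNeasy, 270 for Phenol against Direct-zol and 69 for RNeasy against Direct-zol, of which 3, 2 and 0 were ADE transcripts. The response of ADE17 differed by 0.06 (SE 0.107), 0.09 and 0.03 log2 units (Phenol minus RNeasy, Phenol minus Direct-zol and RNeasy minus Direct-zol), and that of ADE2 by 0.12 (SE 0.084), 0.10 and -0.02. The largest differences were those of ADE12, 0.26 (SE 0.095) against RNeasy and 0.23 against Direct-zol, and ADE6, 0.24 (SE 0.099) against Direct-zol. ADE13, which passed with both kits and not with Phenol, differed by 0.23 (SE 0.086, adjusted p = 0.99) and 0.17 (adjusted p = 0.96), so the methods were not shown to differ for it.

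The 10 transcripts did not share 1 profile. Measured as the root mean square difference over the 24 libraries from the mean centred log2 profile of the 10, ADE12 was the nearest (0.08), ADE16 (0.16), ADE1 (0.18) and ADE4 (0.19) followed, and ADE5,7 (0.61), ADE6 (0.61) and ADE17 (0.89) were the farthest. Of 5302 other transcripts with a mean of at least 10 TPM, the nearest to this mean profile were PUN1 (0.086), AMD1 (0.089), ARH1 (0.095), EXG2 (0.099) and OPY2 (0.102), of which AMD1 encodes AMP deaminase, an enzyme of purine interconversion. Nearness like that of ADE4 was common, since 267 transcripts, ADE members included, lay about as near as ADE4 or nearer. AMD1 was nearer than every ADE transcript but ADE12. PUN1 lay nearer than AMD1, and ARH1, EXG2 and OPY2 about as near, so such a profile was not particular to AMD1.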

How the data were processed

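RNA-seq was performed on 24 libraries of BY4741 (3 isolation methods, 2 treatments, 4 biological replicates), in a single library batch and sequencing lane, as the study states. The authors trimmed reads (Trimmomatic), mapped them with STAR to the S288c genome and quantified transcripts with RSEM, and the submitters' notes also name edgeR. The authors deposited the abundances as TPM, which sum to the same total in each library and keep no read depth. The RSEM counts of the study were not used here, so no counting interval is given. A further deposited table holds only the authors' comparisons (log2 fold changes, p-values and FDR) and was not used.

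Values were scaled with trimmed means of log ratios against the mean library (30% of ratios and 5% of abundances trimmed, no weights), which assumes that most transcripts do not change, and log2(scaled TPM + 1) was analysed. By the tests below 63.4% to 63.9% of transcripts changed with heat shock, so the assumption was not met there. Between Phenol and a kit 41.8% to 44.5% differed. Transcripts with a mean of at least 1 TPM in at least 1 of the 6 sample types were tested (6137 of 6685). Limma 3.58.1 in R 4.3.3 was used (lmFit, contrasts and eBayes with trend, two-sided), with sample type and biological replicate as factors as in the study's model, and Benjamini-Hochberg adjustment over all transcripts. The procedure was tested on simulated data in which few transcripts changed, far fewer than differed here. Such data cannot show how the scaling behaves when many transcripts change. Coding and upstream sequences came from the RefSeq R64 genome and were read with Python 3.11.15 and Biopython 1.88, and all 10 symbols matched. The promoter window was 400 bases.

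Same-numbered libraries came from the same culture, which pairs them. Their deviations from the sample type means correlated by 0.192 on average within a treatment (-0.305 to 0.588, 24 pairs) and by 0.00661 between treatments (36 pairs). Libraries of different number in the same treatment correlated by -0.0634. No 2 libraries held identical values.

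All 10 ADE genes are named. Of the 34 other genes values are given for ADE3, MTD1, SHM2, BAS1 and, per group, at most 3 with the largest mean heat response. The members and lists were chosen with earlier results of these data known. Alternatives were no scaling, median of ratios, quantile normalization, pseudocounts of 0.1 and 5, other filters, other uses of the replicate, only the libraries compared, and leaving out each replicate.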

Additional observations from a re-analysis of the deposited data

Results flagged for a closer look

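Of 60 groups of 4 replicates (10 ADE transcripts in 6 sample types), 6 held a replicate far from the other 3 by Dixon's criterion on TPM as deposited, and chance gives about 5% of groups. ADE17 after heat shock stood out in Phenol replicate 2 (543.48 TPM, others 468.41 to 478.82) and in Direct-zol replicate 4 (385.68 TPM, others 456.13 to 468.4), and both remained far above every unstressed value. ADE4 in unstressed cells stood out in Phenol replicate 3 (77.64 TPM, others 84.78 to 86.08) and in Direct-zol replicate 4 (91.44 TPM, others 84.56 to 85.13). ADE5,7 was low in RNeasy heat shock replicate 4 (115.91 TPM, others 125.24 to 127.02). ADE12 was high in unstressed Direct-zol replicate 2 (99.99 TPM, others 96.5 to 96.8). The criterion was not applied to the scaled values that the tests used, where these gaps can differ. Unstressed Phenol replicate 3 had the lowest library factor (0.776). Its scaled ADE4 value lay inside the range of the group (95.77 to 103.9).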

How the results depend on the processing

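The scaling between libraries had the largest effect. On TPM as deposited the median of all transcripts shifted by -0.281 and -0.333 (Phenol against RNeasy, unstressed and heat shock), -0.109 and -0.207 (Phenol against Direct-zol), 0.164 and 0.120 (RNeasy against Direct-zol) and 0.191, 0.257 and 0.293 (heat response, Phenol, RNeasy, Direct-zol). The share of called transcripts that were higher went, in the same order, from 52.7% to 22%, 51.7% to 18.2%, 51.5% to 39.7%, 51.2% to 28.8%, 75.3% to 98.4%, 83.1% to 98.5%, 48.6% to 62.7%, 49.4% to 66.6% and 49.7% to 69.0%. Where a value passed the threshold before or after, the direction turned on TPM as deposited for Phenol against RNeasy in unstressed ADE2 (-0.241) and ADE8 (-0.248) and heat-shocked ADE1 (-0.198), ADE8 (-0.127), ADE13 (-0.025) and ADE16 (-0.064), and for the heat response of ADE13 with RNeasy (0.015) and Direct-zol (0.108). A further 25 signs turned among values that passed on neither scale, for example ADE13 with Phenol. The cause was not tested.

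Called ADE transcripts between Phenol and RNeasy after heat shock numbered 8 as reported, 3 on TPM as deposited and 5 with quantile normalization. Between Phenol and Direct-zol after heat shock they numbered 5 as reported, 4 on TPM as deposited (ADE1 and ADE8 lower in place of ADE12, ADE16 and ADE17), 3 with quantile normalization or only the libraries compared, and 3 to 4 with a replicate left out. ADE4 was called in addition with the replicate block within each treatment (log2 0.187, limma adjusted p = 0.0053). It was also added with a filter at a mean of at least 10 TPM (0.207, limma adjusted p = 0.0097). Between the kits after heat shock they numbered 2 as reported (ADE1 and ADE8), 1 on TPM as deposited (ADE6, in the other direction), and 0 with quantile normalization, only the libraries compared or any replicate left out. With the replicate block within each treatment ADE4 was called besides ADE1 and ADE8, as lower with RNeasy (log2 -0.228, limma adjusted p = 0.0074). Between the kits unstressed they numbered 0 as reported, 1 with median of ratios, pseudocount 0.1 or only the libraries compared, and 2 with the replicate block within each treatment or no replicate block. Summed scaled levels were 1608, 1274 and 1421 TPM unstressed and 2290, 1732 and 1936 TPM after heat shock (Phenol, RNeasy, Direct-zol), against 1342, 1307, 1267, 2210, 2131 and 2130 TPM as deposited, and quantile normalization gave 1476 and 1366 TPM for unstressed Phenol and Direct-zol and 2006 and 2060 TPM for heat-shocked RNeasy and Direct-zol. TPM carry no read depth and the counts of the study were not used, so counting error was not set beside small differences.

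Over all transcripts the kits differed in 239 unstressed (740 as deposited, 461 with only the libraries compared, 402 with the replicate block within each treatment, 89 to 104 with a replicate left out) and in 272 after heat shock (462 as deposited, 424 with that block, 83 to 155 with a replicate left out).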
